A study of Homo sapiens with 15 samples.

Results

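ADAM and ADAMTS proteases were followed at the RNA level in MDA-MB-231 cells, an established triple-negative human breast cancer line, after knockdown of the transcriptional co-activators YAP and TAZ. The members were taken by gene name from a list that was drawn up with earlier results of these data known. It holds 7 membrane-anchored ADAM genes (ADAM8, ADAM9, ADAM10, ADAM12, ADAM15, ADAM17 and ADAM19) and 3 secreted ADAMTS genes (ADAMTS1, ADAMTS6 and ADAMTS12), which are 10 of the 18858 genes in the count table, and all 10 were measured. The study asked how YAP and TAZ affect the degradation of matrix by cancer cells.

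All cells were MDA-MB-231 and were seeded on unlabelled gelatin, from which RNA was taken after 5 to 6 h. Control cells were untransfected. The siControl cells received a non-targeting siRNA, the siYAP cells a pool against YAP1, the siTAZ cells a pool against WWTR1 (the gene of TAZ), and the siYAP+TAZ cells both pools, with 48 h of knockdown. Each pool was used at the same concentration, so the siYAP+TAZ cells received more siRNA in total than the other groups, and the amount of siRNA and the co-knockdown cannot be told apart. Each group had 3 libraries from 3 independent sets of experiments, which carry library numbers. Those of untransfected Control are 16, 21 and 26, those of the non-targeting siRNA 17, 22 and 27, those of YAP knockdown 18, 23 and 28, those of TAZ knockdown 19, 24 and 29, and those of the co-knockdown 20, 25 and 30. The sources do not say which libraries form a set. All are from 1 cell line.

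ADAM proteins are membrane proteins with a metalloproteinase and a disintegrin domain. They cut other membrane proteins close to the cell surface and so release growth factors, cytokines, receptors and adhesion molecules, a step known as shedding. ADAMTS proteins lack the membrane anchor, carry thrombospondin repeats, and cut components of the extracellular matrix such as proteoglycans and procollagens. Both kinds are made with a prodomain, which proprotein convertases such as furin remove from most of them.

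The values below are counts of reads per gene as deposited, scaled between libraries by the TMM method of edgeR (normalized counts). Total counts were between 18696737 and 30107312 per library, with a median of 22902846. A gene was called changed at an adjusted p of at most 0.05 in edgeR's quasi-likelihood test with Benjamini-Hochberg adjustment over all 18858 genes (edgeR adjusted p below). A second threshold, here the fold threshold, asks in addition for a log2 fold change of 1 or more in size. Of the markers of the cell line, VIM, CD44, AXL, CAV1 and MSN, known to be high in it, had their lowest values between 325 (CD44) and 793 TPM (TPM are counts per exon length, scaled to the same total in each library), while ESR1, CDH1, CD3E, CDH5, VWF, PDGFRA and DCN are not listed in the table. PGR and PTPRC reached at most 0.101 and 0.0604 TPM. EPCAM, listed as a low marker, was at 16.9 to 27.2 and so not near 0, and single markers of other cell types were at 1.31 to 4.87 (CD14), 3.61 to 5.70 (KDR) and 3.90 to 12.9 (COL1A1). CD14 was the only one of these past both thresholds in siYAP+TAZ (log2 fold change 1.20). Of the high markers, AXL fell by 0.51 and CAV1 by 0.35 on the log2 scale in siYAP+TAZ (edgeR adjusted p = 2.0e-04 and 0.0065), and VIM, CD44 and MSN were not called. The part of these markers in the results was not tested.

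The targets of the siRNAs were checked first. In siYAP, YAP1 was at 23.4%, 64.0% and 17.6% of the siControl mean in libraries 18, 23 and 28. In siTAZ, WWTR1 was at 45.8%, 14.1% and 28.8% in libraries 19, 24 and 29. In siYAP+TAZ, YAP1 was at 51.8%, 51.0% and 41.5% and WWTR1 at 62.7%, 62.1% and 71.0% in libraries 20, 25 and 30. Library 23 thus kept much more YAP1 RNA than the other siYAP libraries, and the siYAP changes are given with and without it. The co-knockdown libraries all kept more WWTR1 than any siTAZ library. By edgeR, WWTR1 was called in siTAZ (log2 fold change -1.74, adjusted p = 0.019), while YAP1 in siYAP (-1.51, 0.099) and both targets in siYAP+TAZ (-1.06 and 0.072 for YAP1, -0.62 and 0.20 for WWTR1) were below the siControl libraries without passing the threshold. Of the 2 targets in siYAP+TAZ, DESeq2 called 1 and limma-voom 0, with 0 to 2 called over all alternatives. The paper reports efficient knockdown of YAP and TAZ in this line by RT-qPCR and western blot.

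The siRNA sequences are shown because they define the perturbation. They are printed 5′ to 3′ as the supplementary table of the study lists them, with 1 sequence given for the non-targeting siRNA.
non-targeting siRNA 1: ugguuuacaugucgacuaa
YAP siRNA 1: gcaccuaucacucucgaga
YAP siRNA 2: gaacauagaaggagaggag
YAP siRNA 3: ccaccaagcuagauaaaga
YAP siRNA 4: ggucagagauacuucuuaa
TAZ siRNA 1: aagccuagcucguggcgga
TAZ siRNA 2: aggaacaaacguugacuua
TAZ siRNA 3: ggacaaacacccaugaaca
TAZ siRNA 4: gacaugagauccaucacua
Each YAP sequence is present in 8 to 10 of the 11 annotated YAP1 transcripts and each TAZ sequence in 6 or 7 of the 12 WWTR1 transcripts. None of the 9 sequences, read in either orientation over its full 19 bases, is present in a transcript of the 10 protease genes.

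Windows of 250 bases before the RefSeq start (GRCh38.p14) matched 8 of the 10 genes, and ADAM9 and ADAMTS1 were not matched. Those of the 3 called genes with the largest changes are shown on the strand of the gene. Capitals mark GGAATG, which is CATTCC on the other strand, the core motif bound by TEAD factors, through which YAP and TAZ act on DNA.
ADAM8, chr10:133276869-133277118, minus strand: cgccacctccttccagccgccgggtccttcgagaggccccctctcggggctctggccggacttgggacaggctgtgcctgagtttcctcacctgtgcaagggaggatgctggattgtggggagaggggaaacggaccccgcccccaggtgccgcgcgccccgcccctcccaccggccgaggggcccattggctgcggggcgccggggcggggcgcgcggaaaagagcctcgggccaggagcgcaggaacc
ADAM19, chr5:157575776-157576025, minus strand: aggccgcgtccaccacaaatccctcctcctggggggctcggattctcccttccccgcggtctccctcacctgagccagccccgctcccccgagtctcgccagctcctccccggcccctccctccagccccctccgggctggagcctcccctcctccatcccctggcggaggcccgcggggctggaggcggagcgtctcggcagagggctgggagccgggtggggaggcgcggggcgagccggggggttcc
ADAMTS6, chr5:65481921-65482170, minus strand: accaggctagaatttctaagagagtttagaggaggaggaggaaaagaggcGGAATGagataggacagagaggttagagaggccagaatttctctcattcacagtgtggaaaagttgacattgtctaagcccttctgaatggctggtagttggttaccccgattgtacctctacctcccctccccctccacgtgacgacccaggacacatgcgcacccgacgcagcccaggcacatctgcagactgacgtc
CATTCC was searched on both strands and is present in 11.9% of all 35116 windows of this length. It begins 200 bases before the start of ADAMTS6, 227 before that of ADAM17 and 119 before that of ADAMTS12, and it is not in the windows of ADAM8, ADAM10, ADAM12, ADAM15 and ADAM19. The AP-1 motif TGANTCA, which is its own reverse complement, is in 6.57% of all windows and among these genes in that of ADAMTS12, where it begins 84 bases before the start and does not overlap CATTCC. These matches describe the letters of the windows only.

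In siYAP+TAZ, the RNA of 3 membrane proteases rose (ADAM8, ADAM19 and ADAM17) and that of 1 secreted protease fell (ADAMTS6). These 4 of the 10 genes compare with 18.4% of all genes called, 9.97% higher and 8.39% lower. All genes include many with few reads. With 2 filters against low counts the same 4 were called, beside 3615 of 15583 genes and 3633 of 15307 genes. ADAM8 (higher) and ADAMTS6 (lower) also passed the fold threshold, against 3.46% of all genes, 3.14% higher and 0.318% lower. For 5 of the 10 the siYAP+TAZ libraries did not overlap those of siControl, which was so for 36.4% of all genes. The median log2 fold change of the 10 genes was 0.06, and that of all genes was -0.0048. In siYAP, 1 of the 10 was called (ADAM8, higher), against 0.933% of all genes, 0.477% higher and 0.456% lower. In siTAZ 2 were called, ADAM8 higher and ADAMTS6 lower, against 2.03%, 1.34% higher and 0.695% lower. Libraries did not overlap for 4 of the 10 in each single knockdown, against 19.5% of all genes in siYAP and 20.9% in siTAZ. The 3 comparisons share the siControl libraries. In RNA from bulk cultures, a change in every cell and a change in some of the cells cannot be told apart.

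**Figure D1:**
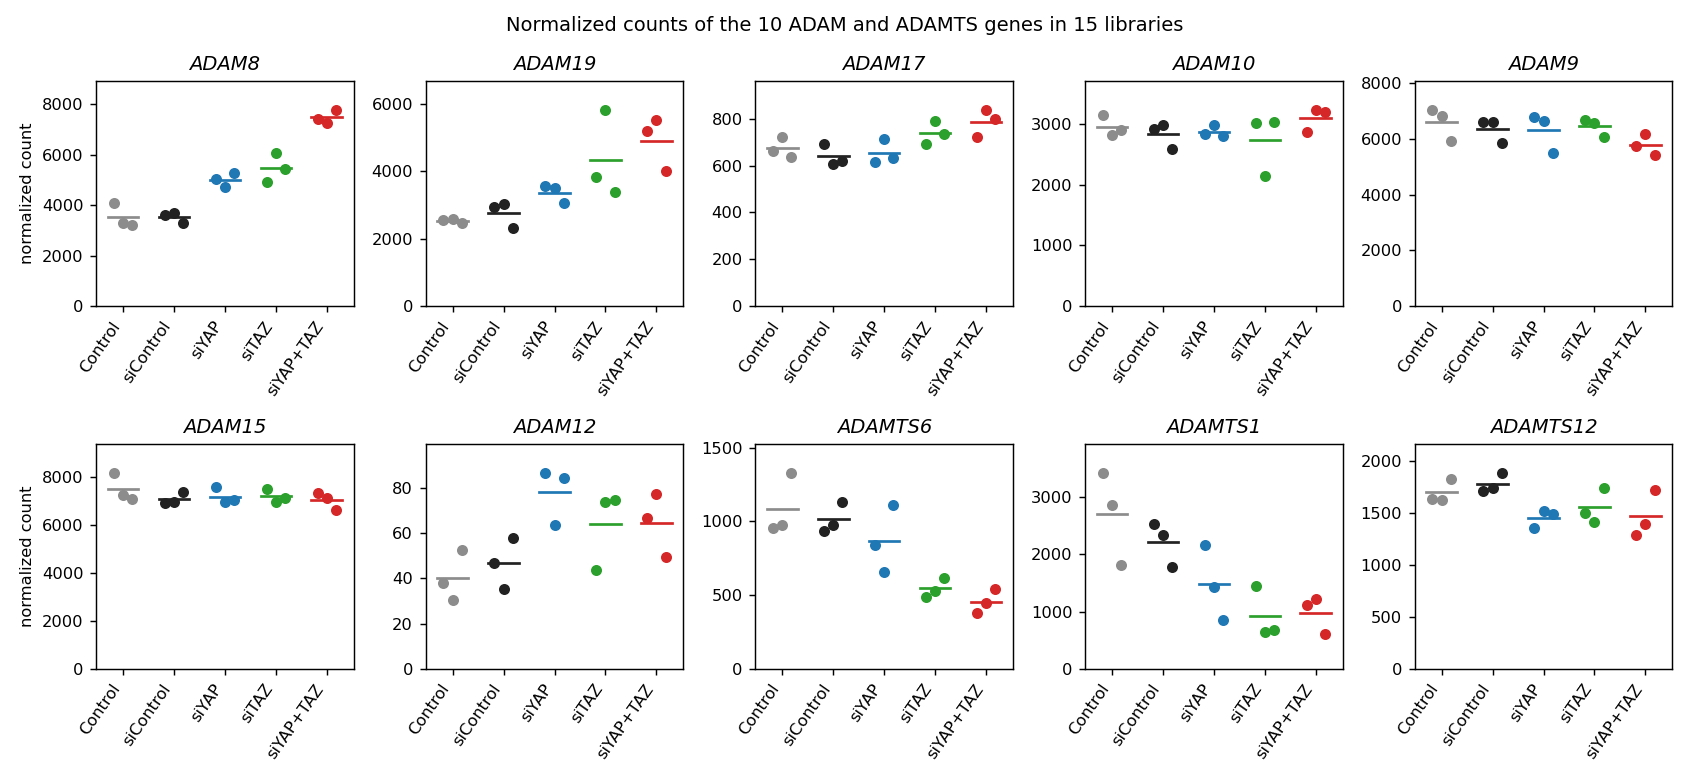
Normalized counts of the 10 genes, 1 panel per gene with its own vertical axis from 0. Points are libraries in order of library number within each of the 5 groups and lines are group means (n = 3). For ADAM8 the siYAP+TAZ libraries, at 7267 to 7756, lie above all other libraries, and for ADAMTS6 the siYAP+TAZ and siTAZ libraries, at 379 to 617, lie below all others.

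ADAM8 is a sheddase best known from leukocytes, and lies on the minus strand at chr10:133262420-133276868 (GRCh38). In siControl libraries 17, 22 and 27 it had 3622, 3678 and 3298 normalized counts, and in Control 4078, 3278 and 3208. Its values were 5019, 4730 and 5286 in siYAP, 4931, 6085 and 5427 in siTAZ, and 7409, 7267 and 7756 in siYAP+TAZ. All knockdown libraries were above all control libraries, siYAP and siTAZ overlapped, and siYAP+TAZ was above both single knockdowns. The mean rose from 3533 ± 205 (SD, n = 3) in siControl to 7478 ± 251 in siYAP+TAZ, which is 1.08 on the log2 scale (standard error 0.093, edgeR adjusted p = 5.5e-07). This call held in all 16 alternatives, with log2 fold changes between 1.03 and 1.12.

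With single pools, ADAM8 rose by less. On the log2 scale the rise was 0.50 in siYAP (standard error 0.093, edgeR adjusted p = 0.013) and 0.63 in siTAZ (standard error 0.093, edgeR adjusted p = 0.0028). Without siYAP library 23 the first was 0.56 (edgeR adjusted p = 0.018). The siYAP call was lost without siControl 17 (edgeR adjusted p = 0.057), siYAP 18 (0.051), siControl 27 (0.067) or siYAP 28 (0.073), each of which kept the direction. ADAM8 was also higher in siYAP+TAZ than in siYAP (log2 difference 0.58, edgeR adjusted p = 0.0011, and 0.53 with 0.013 without siYAP 23) and than in siTAZ (0.45, edgeR adjusted p = 0.0080). It was the only one of the 10 genes called in the comparison with siTAZ, where 5.44% of all genes were called. The change in siYAP+TAZ differed from the sum of both single changes by -0.06 on the log2 scale (95% interval -0.33 to 0.22, edgeR adjusted p = 0.98 for the interaction).

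ADAM19 is a sheddase also known as meltrin beta, for which neuregulin is a known substrate. It lies on the minus strand at chr5:157395534-157575775. ADAM19 had 2949, 3020 and 2309 normalized counts in siControl 17, 22 and 27, and 2547, 2567 and 2476 in Control. Its values were 5180, 5507 and 4019 in siYAP+TAZ, above all control libraries. In siYAP they were 3563, 3489 and 3047, and in siTAZ 3834, 5802 and 3379, so both single knockdowns also lay above siControl. The siYAP+TAZ libraries exceeded siControl by 0.83 on the log2 scale (standard error 0.18, edgeR adjusted p = 0.0054), a call that held in all 16 alternatives with values between 0.72 and 0.96.

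In the single knockdowns ADAM19 missed the threshold, with log2 fold changes of 0.65 in siTAZ (standard error 0.18, edgeR adjusted p = 0.079) and 0.29 in siYAP (standard error 0.18, edgeR adjusted p = 0.58, and 0.28 with 0.71 without siYAP 23). The siTAZ libraries spread widely, and the highest of them, 24, is also the one with the least WWTR1. DESeq2 called the siTAZ change (adjusted p = 0.0066), as did edgeR without robust estimation (adjusted p = 0.049), with Control as the reference (log2 fold change 0.78, adjusted p = 0.032) and without siTAZ library 29 (log2 fold change 0.80, adjusted p = 0.036). A fit with library numbers as a block, given in the last section, also called this change. Without siTAZ library 24 the log2 fold change was 0.39 (edgeR adjusted p = 0.28). On the opposite strand, CYFIP2 covers 0.80% of the exonic bases of ADAM19. Its log2 fold change in siYAP+TAZ was 0.22 (edgeR adjusted p = 0.45).

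ADAM17, also called TACE, releases tumour necrosis factor and most ligands of the epidermal growth factor receptor. It lies on the minus strand at chr2:9488486-9556732. ADAM17 had 693, 608 and 621 normalized counts in siControl, 664, 723 and 638 in Control, and 723, 836 and 797 in siYAP+TAZ libraries 20, 25 and 30. The siYAP+TAZ libraries were above siControl, but the lowest of them, at 723, was level with the highest Control library. The rise was 0.29 on the log2 scale (standard error 0.090, edgeR adjusted p = 0.029). The call was lost with Control as the reference (log2 fold change 0.22, edgeR adjusted p = 0.10), and without siControl 22 (0.26, edgeR adjusted p = 0.12), siYAP+TAZ 25 (0.25, 0.12), siControl 27 (0.27, 0.087) or siYAP+TAZ 30 (0.29, 0.068).

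In siTAZ ADAM17 had normalized counts of 691, 792 and 734 (log2 fold change 0.20, edgeR adjusted p = 0.27), and in siYAP of 617, 714 and 633 (0.03, edgeR adjusted p = 0.95, and -0.02 with 0.98 without siYAP 23). Genes on the opposite strand, IAH1 among them, cover 11.7% of the exonic bases of ADAM17, and 1.36% of its stretches of 50 bases also occur in other genes. Whether the counting used strand is not stated in the sources used here. IAH1 had a log2 fold change of 0.08 in siYAP+TAZ (edgeR adjusted p = 0.85).

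**Figure D2:**
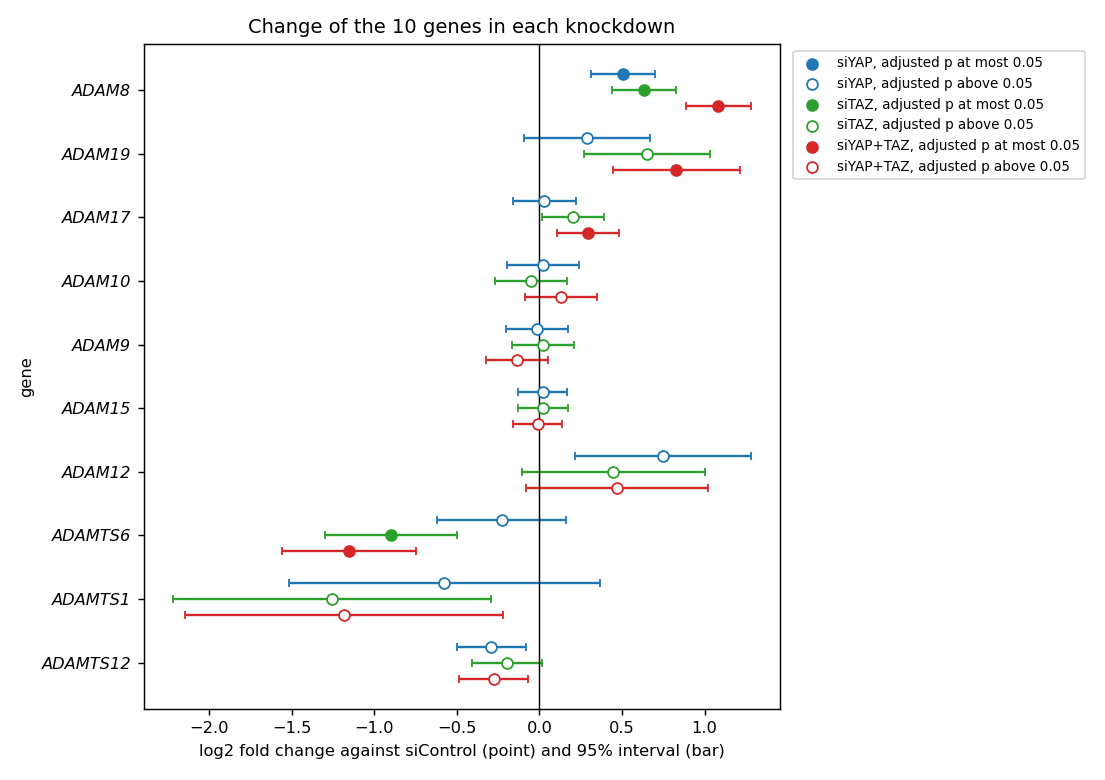
Log2 fold change of each gene against siControl (horizontal axis) in siYAP, siTAZ and siYAP+TAZ, with points for the estimate and bars for the 95% interval (3 libraries per group). Filled points passed an adjusted p of 0.05, which were ADAM8 in each knockdown, ADAMTS6 in siTAZ and siYAP+TAZ, and ADAM19 and ADAM17 in siYAP+TAZ. The intervals of ADAM15 lie between -0.16 and 0.17.

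ADAM10, ADAM9 and ADAM15 were not called in any comparison. ADAM10, the main sheddase of Notch receptors, lies on the minus strand at chr15:58588809-58749791. It had normalized counts of 2916, 2987 and 2587 in siControl and 2866, 3225 and 3194 in siYAP+TAZ, which overlap (log2 fold change 0.13, 95% interval -0.09 to 0.35). The siTAZ libraries of ADAM10 were at 3011, 2142 and 3037, and library 24, the low one, is the one with the high value of ADAM19. The siYAP libraries were at 2829, 2982 and 2805, and those of Control at 3151, 2814 and 2894.

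ADAM9, or meltrin gamma, lies on the plus strand at chr8:38996754-39105445. It was at 6619, 6606 and 5870 in siControl and at 5763, 6172 and 5421 in siYAP+TAZ (log2 fold change -0.14, 95% interval -0.33 to 0.05, edgeR adjusted p = 0.33). In siYAP it was at 6783, 6662 and 5485 and in siTAZ at 6693, 6583 and 6086, both in overlap with siControl. ADAM15, whose disintegrin domain holds an integrin-binding RGD sequence, lies on the plus strand at chr1:155050566-155062775. It was at 6899, 6964 and 7389 in siControl and at 7319, 7128 and 6635 in siYAP+TAZ (log2 fold change -0.01, 95% interval -0.16 to 0.14). Its values in the single knockdowns were at 7586, 6933 and 7017 in siYAP and 7481, 6972 and 7124 in siTAZ. Without siYAP 23 the siYAP changes of ADAM10, ADAM9 and ADAM15 were 0.01, -0.04 and 0.06 on the log2 scale. For these 3 genes the intervals in the 3 knockdowns lie between -0.33 and 0.35 on the log2 scale. DCST1 overlaps 4.65% of the exonic bases of ADAM15 on the same strand and was near 10 normalized counts in siControl (mean 9.95).

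ADAM12, or meltrin alpha, cuts insulin-like growth factor binding proteins and lies on the minus strand at chr10:126012381-126388477. It had few reads, between 26 and 113 per library, so its values carry the largest relative counting error of the 10 genes. Normalized counts were 46.8, 35.1 and 57.9 in siControl, 86.6, 63.6 and 84.2 in siYAP, 43.9, 73.8 and 74.6 in siTAZ, and 66.6, 77.3 and 49.6 in siYAP+TAZ, beside a range of 30.3 to 52.6 in Control. The siYAP libraries were all above siControl, while the other knockdowns overlapped it. The log2 fold changes were 0.75 in siYAP (standard error 0.25, edgeR adjusted p = 0.20), 0.45 in siTAZ (0.44) and 0.47 in siYAP+TAZ (0.25), none past the threshold. Without siYAP library 23 the siYAP value was 0.89 (edgeR adjusted p = 0.18).

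Of the secreted proteases, ADAMTS6 fell. It lies on the minus strand at chr5:65148738-65481920 and belongs to a pair with ADAMTS10 that is tied to fibrillin microfibrils. In siControl libraries 17, 22 and 27 there were 937, 976 and 1133 normalized counts of ADAMTS6, and in Control 954, 977 and 1328. Its values were 379, 449 and 540 in siYAP+TAZ and 490, 530 and 617 in siTAZ. All libraries in which TAZ was targeted were below all control libraries. In siYAP the values were 840, 655 and 1108, a range that overlaps the controls, with library 23 the lowest.

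The mean of ADAMTS6 was 1016 ± 103 (SD, n = 3) in siControl and 456 ± 80.4 in siYAP+TAZ. Its log2 difference from siControl was -1.15 (standard error 0.19, edgeR adjusted p = 7.7e-04), a call that held in all 16 alternatives with values between -1.28 and -1.04. In siTAZ it was -0.90 (standard error 0.19, edgeR adjusted p = 0.024). That call was lost without siControl 17 (-0.96, edgeR adjusted p = 0.055), siTAZ 19 (-0.82, 0.051), siControl 22 (-0.93, 0.080), siTAZ 24 (-0.88, 0.15) or siControl 27 (-0.81, 0.074), with the direction kept each time. In siYAP it was -0.23 (standard error 0.18, edgeR adjusted p = 0.70), and without library 23, the one with the most YAP1 left, it was -0.05 (edgeR adjusted p = 0.97).

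ADAMTS6 was lower in siYAP+TAZ than in siYAP (log2 difference -0.92, edgeR adjusted p = 0.012), where it and ADAM8 were the 2 of 10 genes called against 5.13% of all genes. This call was lost without siYAP+TAZ library 20 (-0.81, edgeR adjusted p = 0.053) and when only the groups compared were fitted (-0.93, 0.057), and without siYAP 23 the value was -1.10 (0.0027). ADAM19 missed the threshold in this comparison (0.54, edgeR adjusted p = 0.10) and passed it with DESeq2 (adjusted p = 0.025) and in the fit of only the groups compared (0.029). It also passed with library numbers as a block, as given in the last section. For ADAMTS6, the log2 difference between siYAP and siTAZ was 0.67, higher in siYAP, and did not pass the test (edgeR adjusted p = 0.13), although the libraries did not overlap, which was so for 17.6% of all genes. Without siYAP library 23 it was 0.85 and passed (edgeR adjusted p = 0.034), and DESeq2 called it with all libraries (adjusted p = 0.021). A fit with library numbers as a block, given in the last section, also called it. Of the 10 genes, 0 were called by edgeR between siYAP and siTAZ, with 1 (ADAMTS6) at an unadjusted p under 0.05 (13.7% of all genes), 1 by DESeq2 and 0 by limma-voom, against 0.642% of all genes. ADAMTS6 in siYAP+TAZ and in siTAZ overlapped (log2 difference -0.25, 95% interval -0.66 to 0.16).

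ADAMTS1, which cuts the proteoglycans aggrecan and versican, lies on the minus strand at chr21:26835755-26845409. ADAMTS1 had 2532, 2341 and 1781 normalized counts in siControl and 1113, 1228 and 603 in siYAP+TAZ. Its values were 1448, 643 and 677 in siTAZ, 2174, 1425 and 856 in siYAP, and 3424, 2862 and 1818 in Control. The siTAZ and siYAP+TAZ libraries were all below siControl, and the spread within each group was wide. The log2 fold change was -1.18 in siYAP+TAZ (standard error 0.43, edgeR adjusted p = 0.090), -1.26 in siTAZ (standard error 0.44, edgeR adjusted p = 0.18) and -0.58 in siYAP (standard error 0.42, edgeR adjusted p = 0.68, and -0.53 with 0.81 without siYAP 23).

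The siYAP+TAZ value of ADAMTS1 passed with DESeq2 (adjusted p = 0.039), with edgeR without robust estimation (0.026) and with Control as the reference (-1.47, 0.039). It also passed with library numbers as a block, as given in the last section. The library with the highest number was the lowest in Control, siControl, siYAP and siYAP+TAZ, while in siTAZ it was library 24.

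ADAMTS12, which cuts cartilage oligomeric matrix protein, lies on the minus strand at chr5:33523535-33892019. It was at 1632, 1626 and 1829 in Control, 1711, 1741 and 1882 in siControl, 1354, 1512 and 1490 in siYAP, 1502, 1410 and 1743 in siTAZ, and 1283, 1397 and 1716 in siYAP+TAZ. The siYAP libraries lay below siControl, and library 30 kept siYAP+TAZ in overlap with it. The log2 fold change was -0.28 in siYAP+TAZ (standard error 0.10, edgeR adjusted p = 0.063), and without library 30 it was -0.40 (edgeR adjusted p = 0.0083). It was -0.29 in siYAP (standard error 0.10, edgeR adjusted p = 0.20, and -0.31 with 0.29 without siYAP 23) and -0.20 in siTAZ (standard error 0.10, edgeR adjusted p = 0.35).

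Between siControl and Control edgeR called 0 of the 10, with 0 at an unadjusted p under 0.05, and DESeq2 and limma-voom also called 0. Over all genes edgeR called 0%, with 2.11% at an unadjusted p under 0.05. The log2 differences lay between -0.29 (ADAMTS1) and 0.21 (ADAM12). The interaction of siYAP and siTAZ was called for 0 of the 10 genes (0 at an unadjusted p under 0.05, 0 by DESeq2 and 0 by limma-voom), against 0.0106% of all genes called and 5.85% at an unadjusted p under 0.05. Here the interaction is the siYAP+TAZ change minus the sum of both single changes. It was least well determined for ADAMTS1 (0.65, standard error 0.61). The interval was -1.49 to 0.03 for ADAM12 and narrower for ADAMTS6 (-0.59 to 0.55) and ADAM15 (-0.26 to 0.16), on the log2 scale.

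Per length, ADAM15 and ADAM8 had the highest levels in siControl and ADAM12 the lowest. TPM were computed from the counts and the union of annotated exons. ADAM15 stood at 179 ± 11.1 TPM (SD, n = 3), ADAM8 at 124 ± 16.7, ADAM9 at 60.0 ± 8.85, ADAM19 at 60.0 ± 12.6 and ADAMTS1 at 51.0 ± 13.1. Below them were ADAMTS12 at 30.7 ± 1.60, ADAM10 at 29.6 ± 4.39, ADAMTS6 at 19.6 ± 0.853, ADAM17 at 6.71 ± 1.07 and ADAM12 at 0.781 ± 0.173. Neighbours in this order that overlapped between libraries were ADAM9 and ADAM19, ADAM19 and ADAMTS1, and ADAMTS12 and ADAM10. In siYAP+TAZ, ADAM8 at 276 ± 11.6 stood above ADAM15 at 188 ± 21.7, and ADAM19 reached 113 ± 25.6 while ADAMTS1 ranged from 13.4 to 31.7 and ADAMTS6 was at 9.32 ± 1.27. With the longest transcript as the length, ADAM9 was at 109.8 in siControl and thus clear of ADAM19, so its place depends on the gene model.

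**Figure D3:**
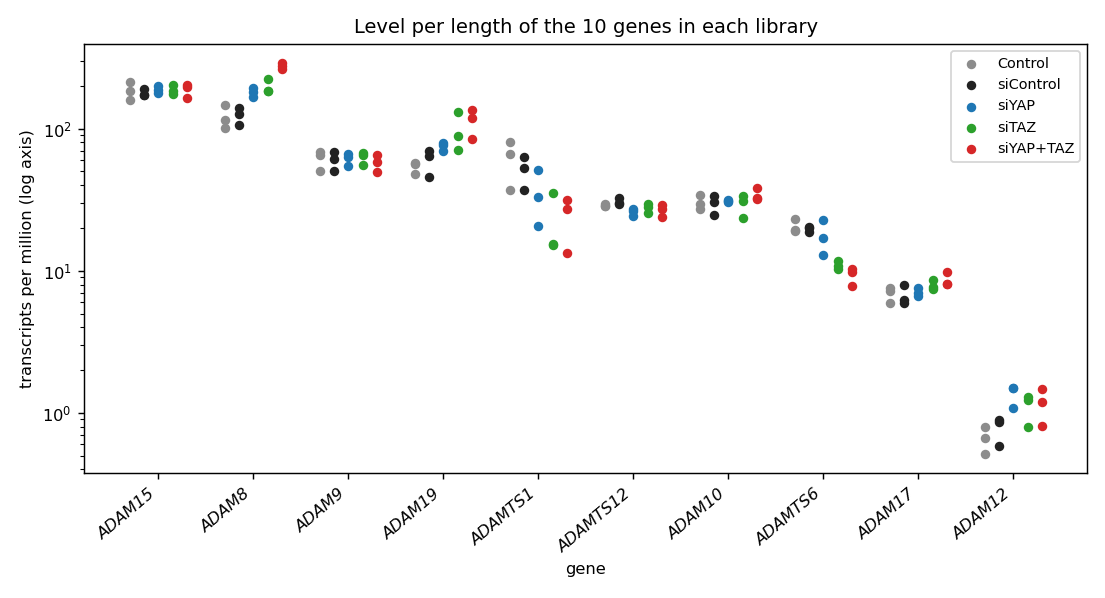
Level per length (TPM, log axis) of the 10 genes in each of the 15 libraries, ordered by their mean in siControl, with 1 colour per group. In siYAP+TAZ ADAM8 lies at 264 to 287, above ADAM15 at 164 to 204, while in siControl the order is the other way.

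The genes whose pattern over the 15 libraries was most like that of ADAM8, by Pearson's r of log2 scaled counts among the 10640 genes that average 100 or more normalized counts, were KIAA1217 (0.98), TUBA1A (0.98) and ABCC3 (0.97). Those most like ADAMTS6 were PAK1IP1 (0.96), VARS1 (0.95) and POLR1B (0.94). The 15 points share the groups and the depth of the libraries, and r is given as a description.

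Related genes were taken from lists and compared between siYAP+TAZ and siControl, on the log2 scale. Of 16 other ADAMTS genes, 10 were measured, 4 rose and 1 fell in siYAP+TAZ, with a median log2 fold change of 0.86. Those that rose were ADAMTS14, a procollagen N-proteinase (1.93, standard error 0.28, edgeR adjusted p = 1.1e-04), ADAMTS7, which cuts cartilage oligomeric matrix protein (1.28, standard error 0.32, 0.0095), ADAMTS15, which cuts versican (0.97, standard error 0.15, 4.8e-04), and ADAMTS9, another versicanase (0.86, standard error 0.15, 4.9e-04). ADAMTS15 had the most reads of them, with a mean of 1516 ± 310 in siControl and 2972 ± 344 in siYAP+TAZ. ADAMTS14 went from 32.6 ± 12.8 in siControl to 122 ± 22.8. ADAMTS9 was also called in siTAZ (0.71, edgeR adjusted p = 0.016). Without siControl 22 or siYAP+TAZ 30 the call of ADAMTS7 was lost, and 4 of these genes remained. ADAMTS16 fell by 0.40 on the log2 scale (edgeR adjusted p = 0.0051). ADAMTS9 and ADAMTS16 were named after their values were seen. Secreted ADAMTS genes thus moved in both directions, with ADAMTS6 and ADAMTS16 lower.

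Of 14 other ADAM genes 5 were measured and 0 were called by edgeR in siYAP+TAZ, with 1 at an unadjusted p under 0.05, 0 by DESeq2 and 0 by limma-voom. With Control as the reference 1 was called, ADAM28, which was higher. The one with the most reads was ADAM22, a catalytically inactive member (log2 fold change 0.17, edgeR adjusted p = 0.45). All 7 ADAMTS-like genes, which lack a protease domain, were measured, and 1 rose, ADAMTSL2 (1.27, edgeR adjusted p = 0.028), with means of 10.2 and 24.8 normalized counts, named after its values were seen. This call was lost when any siControl library or siYAP+TAZ 25 or 30 was left out, and with Control as the reference. ADAMTSL4, also named after its values were seen, missed the threshold (-0.69, edgeR adjusted p = 0.19) and was called lower with Control as the reference and in the fit of only the groups compared. ADAMTSL1, the most abundant by reads, was at 637 ± 87.9 in siControl and 553 ± 17.3 in siYAP+TAZ (-0.20, edgeR adjusted p = 0.18).

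The partners of ADAM10 and ADAM17 and the proprotein convertases were all measured, and 7 of 14 rose in siYAP+TAZ, with a median of 0.25. None fell past the threshold in this fit, while PCSK7 (-0.21, edgeR adjusted p = 0.065) and TSPAN33 (-0.63, 0.10) had libraries below siControl. PCSK7 was called lower without siControl 17 and with Control as the reference, and TSPAN33 without siControl 22. TSPAN15, a tetraspanin that carries ADAM10 to the surface and steers its choice of substrate, rose most, from 171 to 252 in siControl to 448 to 551 normalized counts in siYAP+TAZ (1.19, standard error 0.13, edgeR adjusted p = 5.1e-06). It was also called in siYAP (0.64, edgeR adjusted p = 0.018, and 0.65 with 0.047 without siYAP 23) and siTAZ (0.95, edgeR adjusted p = 0.0023). The siYAP call of TSPAN15 was lost without siControl 17, siControl 27, siYAP 18 or siYAP 28 (edgeR adjusted p = 0.064, 0.079, 0.070 and 0.075) and in the fit of only the groups compared (0.65, 0.057). The ADAM17 partners iRhom1 (RHBDF1, 0.37, edgeR adjusted p = 0.0034), iRhom2 (RHBDF2, 0.58, 0.034) and FRMD8 (0.23, 0.022) rose, as did PACS2 (0.24, 0.039), TSPAN5 (0.33, 0.049) and the convertase PCSK5 (0.91, 0.045). These 6, PCSK7 and TSPAN33 were named after their values were seen. The number that rose was 2 without siControl 17, 3 without siControl 22, 4 without siControl 27, siYAP+TAZ 20 or siYAP+TAZ 25, and 5 without siYAP+TAZ 30, with TSPAN15 and RHBDF1 called each time. It was also 4 with Control as the reference, where RHBDF1 (0.13, edgeR adjusted p = 0.31) and RHBDF2 (0.44, 0.099) lost their calls, and in the fit of only the groups compared. With limma-voom and with edgeR without robust estimation 5 rose, and TSPAN5 and PCSK5 lost their calls. With scaling by library size only 6 rose, and TSPAN5 lost its call. FURIN, with the most reads, had a log2 fold change of 0.26 (edgeR adjusted p = 0.30).

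Of 6 inhibitors 5 were measured and 2 rose, with a median of 0.39. TIMP4 rose from a mean of 26.1 ± 7.77 to 84.0 ± 22.0 normalized counts in siYAP+TAZ (1.66, standard error 0.25, edgeR adjusted p = 1.8e-04) and was called in siTAZ (1.41, edgeR adjusted p = 0.0087). TIMP1 rose by 0.60 on the log2 scale (edgeR adjusted p = 0.022), named after its values were seen, and this call was lost without siControl 17, siControl 22 or siYAP+TAZ 30. TIMP3, which inhibits ADAM17 and several ADAMTS enzymes and had the most reads, was at 0.39 (standard error 0.27, edgeR adjusted p = 0.37).

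Among 28 membrane proteins shed by ADAMs, 25 were measured, and by edgeR 7 rose and 2 fell in siYAP+TAZ, with a median of 0.05. The ligands of the epidermal growth factor receptor amphiregulin (AREG, 1.11, standard error 0.21, edgeR adjusted p = 0.0033) and epiregulin (EREG, 1.02, standard error 0.27, 0.018) rose past the fold threshold, as did the membrane chemokine CX3CL1 (1.57, standard error 0.46, 0.032). CX3CL1 spread widely, from 149 to 411 normalized counts in siYAP+TAZ. TGFA (0.62, edgeR adjusted p = 0.010), JAG1 (0.97, 0.040), L1CAM (0.46, 0.013) and TNFRSF1A (0.50, 0.0013) also rose, and HBEGF (-0.35, edgeR adjusted p = 0.0044) and MICB (-0.26, edgeR adjusted p = 0.039) fell. These 6 were named after their values were seen. The count of 9 was 5 without siControl 17 or siControl 22 and 6 without siYAP+TAZ 30, and AREG, TGFA, TNFRSF1A and HBEGF were called with any of the 6 libraries left out. EREG lost its call without siYAP+TAZ 25, CX3CL1 without any siControl library or siYAP+TAZ 30, and L1CAM without siControl 17, siControl 22 or siYAP+TAZ 30. With 1 library left out, JAG1 was called only without siYAP+TAZ 30 and MICB only without siYAP+TAZ 20. AREG, CX3CL1 and JAG1 lost their calls in the fit of only the groups compared, and CX3CL1 also with limma-voom. With Control as the reference JAG1, L1CAM and MICB lost theirs, and MICB also with scaling by library size only. ALCAM, named after its values were seen, missed the threshold (-0.36, edgeR adjusted p = 0.052) and was called lower by DESeq2, by limma-voom, in the fit of only the groups compared, with Control as the reference, and without siControl 27 or siYAP+TAZ 25. BTC, named in the same way, was called higher by limma-voom, with Control as the reference and without siControl 27. CD44, with the most reads, had a log2 fold change of 0.14 (edgeR adjusted p = 0.35).

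Of 15 matrix substrates of ADAMTS enzymes 9 were measured, and by edgeR 1 rose and 1 fell, with a median of 0.13. THBS2 was low and rose from a mean of 12.1 ± 7.23 to 41.6 ± 5.81 normalized counts (1.74, standard error 0.34, edgeR adjusted p = 0.0015). THBS1, the most abundant by reads, fell by 0.56 on the log2 scale (edgeR adjusted p = 3.2e-04), from 49883 ± 2732 to 33779 ± 2585. THBS1 was also called in siYAP (-0.51, edgeR adjusted p = 0.011, and -0.53 with 0.030 without siYAP 23), a call that was lost without siControl 17, siControl 22 or siYAP 28 (0.074, 0.052 and 0.075). FN1, fibronectin, named after its values were seen, missed the threshold (0.77, edgeR adjusted p = 0.064). It was called higher by DESeq2, with both low-count filters, without robust estimation and in the fit of only the groups compared. Counts in these lists are descriptions beside the 18.4% of all genes called.

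**Figure D4:**
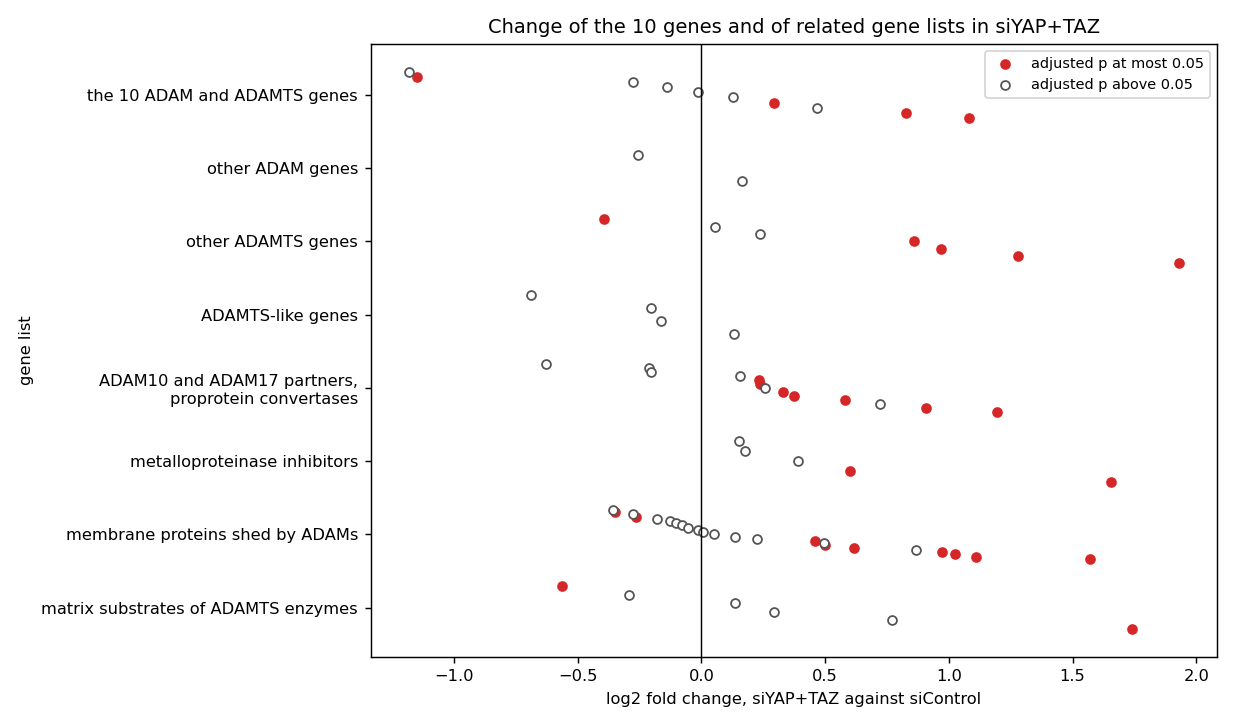
Log2 fold change in siYAP+TAZ against siControl (horizontal axis) of the 10 genes and of the genes of 7 related lists that average 20 or more normalized counts, 1 point per gene, spread vertically for display. Filled points passed an adjusted p of 0.05. Among other ADAMTS genes the called points lie between -0.40 and 1.93, and all 7 called partners and convertases lie above 0.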

How the data were processed

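Libraries were assigned to 5 groups of 3 by their labels. The authors trimmed single reads, aligned them with STAR 2.4.2a to GRCh38 (GENCODE 34) and deposited raw counts per gene, which were used here. Their 30 columns of normalized and rlog values and 70 columns of comparisons (fold changes, p-values, marks) were not used. All 18858 genes were fitted together with edgeR 4.0.16 (R 4.3.3, TMM, robust quasi-likelihood, 1 coefficient per group, no block). Alternatives were DESeq2 1.42.0, limma-voom (limma 3.58.1), 2 filters, other scalings, other references, a block and left-out libraries. TPM used GENCODE 44, in which 82.6% of symbols were found. The tests were checked on simulated data. The 10 genes, the lists and the motifs were chosen with earlier results of these data known. From each list, genes averaging 20 or more normalized counts and past both thresholds in siYAP+TAZ were named, with the gene of highest mean count, and for each of the 10 past both thresholds the 3 most correlated genes. P-values measure the spread between these libraries only.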

Additional observations from a re-analysis of the deposited data

How the results depend on the processing

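Over 80 single values (10 genes, 8 comparisons) and 1300 alternative values, 1263 kept their side of the threshold, 16 lost the call and 21 gained it. No called value changed direction, and 73 uncalled values changed sign. The number of the 10 genes called in siYAP+TAZ against siControl differed by at most 1.5 times under every alternative, as did the number past the fold. With library numbers in runs (16 to 20, 21 to 25, 26 to 30) as a replicate block, 6 genes were called in siYAP+TAZ, with ADAMTS1 (-1.21, edgeR adjusted p = 0.0043) and ADAMTS12 (-0.28, 0.0017) added, 3 in siYAP and 4 in siTAZ. Between siYAP+TAZ and siYAP 4 were called, with ADAM19 (0.53, edgeR adjusted p = 0.011) and ADAM17 (0.26, 0.020) added, and between siYAP and siTAZ 1, ADAMTS6 (0.65, 8.0e-05). The block also called ADAM12 (0.75, 0.044) and ADAMTS12 (-0.29, 0.0078) in siYAP, and ADAMTS1 (-1.32, 0.0095) and ADAM19 (0.64, 0.0064) in siTAZ. In siYAP+TAZ it called 12 of the 14 partners and convertases, 9 higher, with FURIN and TSPAN10 added, and 3 lower (TSPAN33, TSPAN14 and PCSK7). In the other lists it added TIMP3, BTC and FN1 as higher and ALCAM, MICA and ADAMTSL4 as lower. Calls over all genes in siYAP+TAZ then went from 3464 to 5389. Deviations of libraries of a run correlated at 0.34 to 0.67, -0.066 to 0.39 and 0.56 to 0.72, so the numbers were not taken to pair libraries. DESeq2 called 1 gene between siYAP and siTAZ. Leaving out 1 library gave 0 to 1 genes in siYAP, 1 to 3 in siTAZ, 1 to 2 between siYAP+TAZ and siYAP and 0 to 1 between siYAP and siTAZ. The cause of these changes was not tested. When 1 library is left out, the loss of that library and the fewer libraries cannot be told apart. With the longest transcript as the length, the siControl levels in TPM were 109.8 (ADAM9), 191 (ADAM15), 11.9 (ADAM17), 16.9 (ADAMTS6) and 25.2 (ADAMTS12). Depth limits ADAM12, with 26 to 113 reads.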
